A study of Macaca fascicularis with 64 samples.

Results

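Two-hormone cells were islet cells in which the most abundant of 4 hormone transcripts, glucagon (GCG), insulin (INS), somatostatin (SST) and pancreatic polypeptide (PPY), reached at least 20000 counts per 1000000 transcripts of the cell (CPM) and was less than 2 times the next. Of 5908 retained cells, 238 (4.03%) met this rule. By pair, 200 cells carried GCG with INS, 21 GCG with PPY, 16 GCG with SST and 1 INS with PPY. The hormone levels chose the cells, so they are given below as a description and carry no test. Counts of called genes below still include the hormones. A single-hormone cell was one in which the leading hormone reached 20000 CPM and was at least 4 times the next, which gave 4193 single GCG cells and 384 single INS cells.

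Each endocrine cell type of the islet is known for one hormone. α-cells release glucagon, which raises blood glucose, and are set by transcription factors such as IRX1 and IRX2. β-cells release insulin, which lowers it, and depend on PDX1, NKX6-1 and MAFA. A profile with both hormones can be read from a cell that makes both, from a pair of cells captured under one barcode, or from a cell that took up transcripts freed by its neighbours, and a count table alone does not label these.

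The cells came from dissociated pancreatic islets of 16 cynomolgus monkeys (Macaca fascicularis), with 4 young females, 4 young males, 4 old females and 4 old males. Young animals were 4 to 6 and old animals 18 to 21 years old by the study's methods, none carried a genetic change or drug treatment by the labels, and single cells were picked by hand after sorting removed debris. Each monkey gave 4 libraries of up to 96 cells, and since monkeys were processed on separate days, animal and day cannot be told apart. Monkeys, not cells, were the replicates in every test. Between 79 and 96 cells were retained per library, and the median cell of a monkey held 39037 to 87880 macaque transcripts, counted by unique molecular identifiers (UMIs). The same 96 cell barcodes served in every library, 93 of them being present in all 64 libraries, so a barcode names a cell only within its library. Only 24 retained cells had no hormone at 20000 CPM. Passing this level does not identify an endocrine cell. Of 43 cells with at least 5000 CPM of a stellate, endothelial, immune or acinar marker list, only 6 were below it.

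The GCG/INS pair was found in all 16 monkeys, but in very unequal numbers. INS was the higher hormone in 127 of these cells and GCG in 73. Counts ran from 1 cell in old female 3 and in old male 1 to 26 in old female 1 and 40 in young female 1. These last animals held 66 of the 200 cells. Within animals the cells clustered by library. In young male 2 all 10 came from library 4, and in young male 4 all 18 came from libraries 3 and 4. In young female 1, library 3 alone held 18 cells, 18.9% of its retained cells. The median library held 2, and 47 of 64 libraries held at least 1. By barcode, CTCAATGA held 10 GCG/INS cells among its 62 retained cells, from 8 monkeys, the next barcode held 6 and the median barcode 2.

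**Figure D1:**
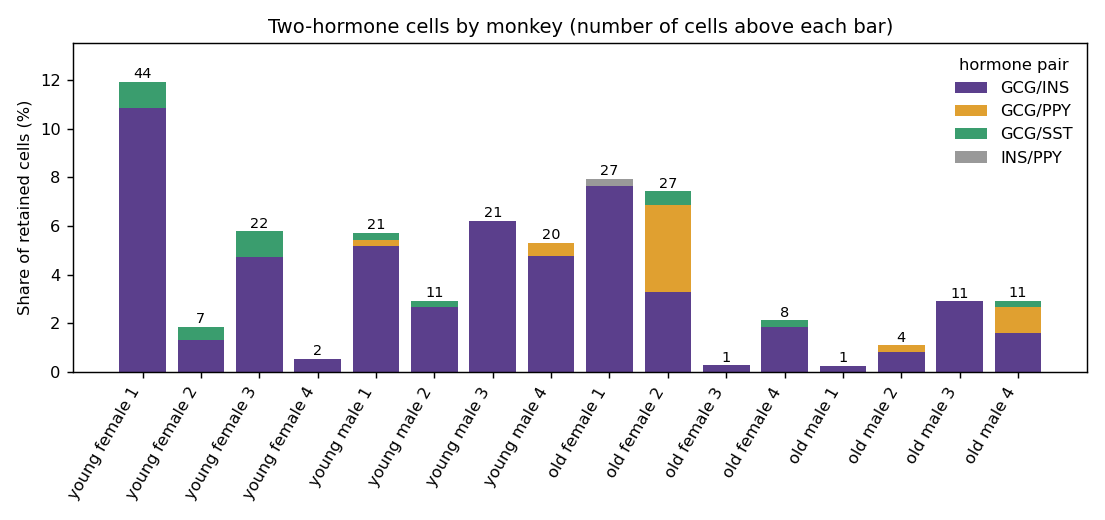
Share of retained cells (%) that were two-hormone cells in each of 16 monkeys, stacked by hormone pair, with the number of cells above each bar. Young female 1 stands highest at 44 cells, old female 3 and old male 1 hold 1 cell each, and GCG/PPY cells are concentrated in old female 2.

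In GCG/INS cells both hormones were abundant in absolute terms. The median cell held 47726 CPM of GCG and 59115 CPM of INS, or 2393 and 3070 UMIs. Median single GCG cells held 84447 CPM of GCG with 5030 of INS, and median single INS cells held 85124 CPM of INS with 16118 of GCG. Both hormones together made 10.8% of a GCG/INS cell's UMIs in the median, against 9.09% for the 2 highest hormones of a single GCG cell and 10.1% for those of a single INS cell. The higher hormone of GCG/INS cells was thus below the level of the matching single-hormone class, and the lower one above that of the opposite class, as the choice of cells sets it to be.

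The rule cut through a continuous range on the INS side and a sparser one on the GCG side. Of cells led by INS, 702 had a ratio between 2 and 4, far more than the 384 at 4 or above, whereas of cells led by GCG only 208 lay between 2 and 4. Just inside the limit, 30 GCG/INS cells had a ratio of 1.9 to 2, with medians of 65.5 CPM of IRX2 and 50.8 CPM of MAFA. Just outside it, 29 cells at 2 to 2.1 had medians of 72.3 CPM of IRX2 and 102 CPM of MAFA. The closest cells on either side had ratios of 1.9956 and 2.0045. Over all pairs, 101 cells had a ratio below 1.5 and 28 a ratio below 1.1.

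Hormone transcripts were present in cells of every class, at levels that differed between libraries. In single GCG cells, the library median of INS ran from 383 to 28868 CPM. In cells whose INS was at least 2 times any other hormone, the library median of GCG ran from 7930 to 38586 CPM over the 56 libraries with at least 3 such cells. The GCG of INS-higher two-hormone cells was a median 1.37 times that of INS-led cells of the same library, and 38 of 126 cells with a reference passed 2 times. The INS of GCG-higher cells was a median 5.29 times that of single GCG cells of the same library, and 63 of 73 passed 2 times. Both ratios depend on the choice of cells, which favours a higher second hormone in two-hormone cells than in either reference. The references were cut at unlike ratios, 2 times for INS-led and 4 times for single GCG cells. The 1.37 and 5.29 can therefore not be set against each other. Cells strongly marked by another cell type also carried hormones. Among 43 cells with at least 5000 CPM of a stellate, endothelial, immune or acinar marker list, the medians were 31798 CPM of GCG and 8254 CPM of INS, and 4 of the 43 were GCG/INS cells. The part of freed transcripts in the two-hormone class was not tested.

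α-cell transcription factors in GCG/INS cells stood between both single-hormone classes. IRX2, an α-cell homeodomain factor, averaged 174 ± 124 CPM (SD, n = 12 monkeys with at least 5 GCG/INS cells), against 514 ± 145 CPM in single GCG cells (n = 12) and 26.8 ± 13.2 CPM in single INS cells (n = 7 monkeys with at least 5 such cells). By monkey, the IRX2 level in GCG/INS cells ran from 50.8 CPM in old female 2 through a median of 131 CPM to 444 CPM in old female 1. In each of the 12 monkeys it lay below single GCG cells, and in each of the 7 it lay above single INS cells. Summed per monkey and class, IRX2 was 1.75 log2 units lower than in single GCG cells (log2 fold change -1.75 ± 0.25 SE, adjusted p = 1.8e-06, edgeR quasi-likelihood) and 3.07 ± 0.34 higher than in single INS cells (adjusted p = 5.9e-08). FEV, an ETS factor, showed the same order, with 34.6 ± 23.9 CPM against 120 ± 41.1 and 7.14 ± 3.44.

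IRX1, a relative of IRX2, averaged 19.1 ± 20.7 CPM and was higher than in single INS cells (log2 fold change 2.80, edgeR adjusted p = 0.0062), but missed the threshold against single GCG cells (-1.21, adjusted p = 0.066).

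β-cell transcription factors were far above their level in single GCG cells, and none passed the test against single INS cells. MAFA, a factor of mature β-cells that drives insulin transcription, averaged 130 ± 76.3 CPM in GCG/INS cells (n = 12), 146 ± 55.7 CPM in single INS cells (n = 7) and 4.73 ± 2.46 CPM in single GCG cells (n = 12). Among monkeys it ran from 25.9 CPM in young male 3 through a median of 131 CPM to 307 CPM in old male 4. The lowest of these values was above the highest single GCG value, 11.0 CPM. By edgeR, MAFA was 4.86 ± 0.27 log2 units higher than in single GCG cells (adjusted p = 5e-17), and its difference from single INS cells was -0.05 ± 0.30 (adjusted p = 0.96). NKX6-1, which maintains β-cell identity, averaged 182 ± 80.6 CPM against 230 ± 101 in single INS cells and 52.1 ± 16.8 in single GCG cells. PDX1 was sparse, with a UMI in 24 of 200 GCG/INS cells (12%), 17.4% of single INS cells and 1.00% of single GCG cells.

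Across fixed gene lists the same picture held, and it has to be read knowing that cells chosen for both hormones also hold genes that follow these hormones. By edgeR at an adjusted p of 0.05, 10.3% of 11209 tested genes differed from single GCG cells in either direction. Of 5 tested α-cell factors, 3 were lower than in single GCG cells and 3 higher than in single INS cells. Over all 11209 tested genes, 6.51% were lower than in single GCG cells and 1.76% higher than in single INS cells by edgeR at an adjusted p of 0.05. Of 5 tested β-cell factors, all were higher than in single GCG cells, where 3.77% of all genes were, and none passed against single INS cells in either direction, where 2.11% did. Median log2 fold changes were -1.70 and 2.80 for the α-cell factors and 3.51 and -0.73 for the β-cell factors, against single GCG and single INS cells in turn. The medians over all genes were -0.23 and -0.02.

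Of 11 tested α-cell markers other than GCG and factors, 9 were lower than in single GCG cells, where 6.51% of all tested genes were. Against single INS cells 5 were higher, where 1.76% of all tested genes were, while LOXL4 and DPP4 passed in neither contrast. TSPAN12, a membrane scaffold gene, averaged 199 ± 88.3 CPM against 856 CPM in single GCG and 41.3 CPM in single INS cells, and the vitamin D binding protein gene GC averaged 126 ± 125 CPM against 445 and 19.9. All 8 tested β-cell markers were higher than in single GCG cells, where 3.77% of all tested genes were. None passed against single INS cells, where 2.11% of all tested genes did in either direction. SLC2A2, the β-cell glucose transporter, averaged 423 ± 227 CPM against 6.76 in single GCG and 724 in single INS cells (log2 fold change 6.48 and -0.73, edgeR adjusted p = 3.2e-20 and 0.19). IAPP, the amyloid peptide co-secreted with insulin, averaged 1383 ± 819 CPM against 37.4 and 2515, and HADH, a mitochondrial fatty acid enzyme that restrains insulin release, 596 ± 263 CPM against 45.7 and 1018.

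On a scale from the opposite class (0%) to the matching class (100%), over the 7 monkeys with all 3 classes, GCG itself stood at 46.5%. The 9 α-cell markers with at least 10 CPM stood at a median of 26.9%, from -11.5% for SLC7A2 to 66.6% for PLCE1, the 3 α-cell factors at 37.6%, up to 72.8% for IRX1, the 8 β-cell markers at 45.2% and the 5 β-cell factors at 40.3%. MAFA was the highest β-cell factor at 84.9% and PDX1 the lowest at 26.2%. These positions are descriptions and were not compared by a test.

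Whether both programmes were present in the same cell was asked with IRX2 and MAFA after each cell was thinned to 10000 UMIs, which left out 13 of the 200 GCG/INS cells for too few UMIs. A UMI of both was found in 60 of 187 cells (32.1%, exact 95% interval 25.5 to 39.3%), against 3.14% of single GCG and 9.11% of single INS cells. Per monkey, the share exceeded that in single GCG cells in 12 of 12 monkeys by 28.7 percentage points (exact sign-flip test, two-sided p = 0.00049, the smallest that 12 monkeys allow). It exceeded that in single INS cells in 10 of 11 monkeys by 22.1 points (exact sign-flip p = 0.0020). In 4 of these 11 monkeys the share in single INS cells rested on 1 to 3 cells. At full depth the shares were 62.0%, 16.6% and 52.9%, and the difference from single INS cells was 23.6 points over 11 monkeys, with exact sign-flip p = 0.081. IRX2 was counted at full depth in 64.3% of single INS cells at a median 58090 UMIs and MAFA in 16.9% of single GCG cells at 64868 UMIs, so a single UMI of either did not separate the classes. At full depth, 702 cells led by INS at 2 to 4 times held IRX2 in 86.8% and MAFA in 79.3%. GCG/INS cells held them in 88.0% and 65.0%. After thinning, cells led by INS at least 2 times held both in a mean of 15.2% per monkey. GCG/INS cells exceeded this by 16.9 points, in 12 of 12 monkeys (exact sign-flip p = 0.00049).

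Summed factor panels gave a measure over more genes. With a panel called present at 25% or more of its mean in the matching single-hormone class, a limit set after the values were seen, 61 of 200 GCG/INS cells (30.5%) held both panels, 83 (41.5%) the β-cell panel alone, 24 (12%) the α-cell panel alone and 32 (16%) neither. Single INS cells held both in 1.30% and the β-cell panel alone in 90.1%. Single GCG cells held both in 13.6% and the α-cell panel alone in 74.5%. Both panels were present in 47.9% of GCG-higher cells, and in 20.5% of INS-higher cells, of which 55.9% held the β-cell panel alone. Cells with both panels came from 12 monkeys, with 15 in young female 1, 13 in old female 1, 10 in young male 1 and 7 in young male 4. In old female 2 none of 12 cells held both and 9 held the β-cell panel alone.

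**Figure D2:**
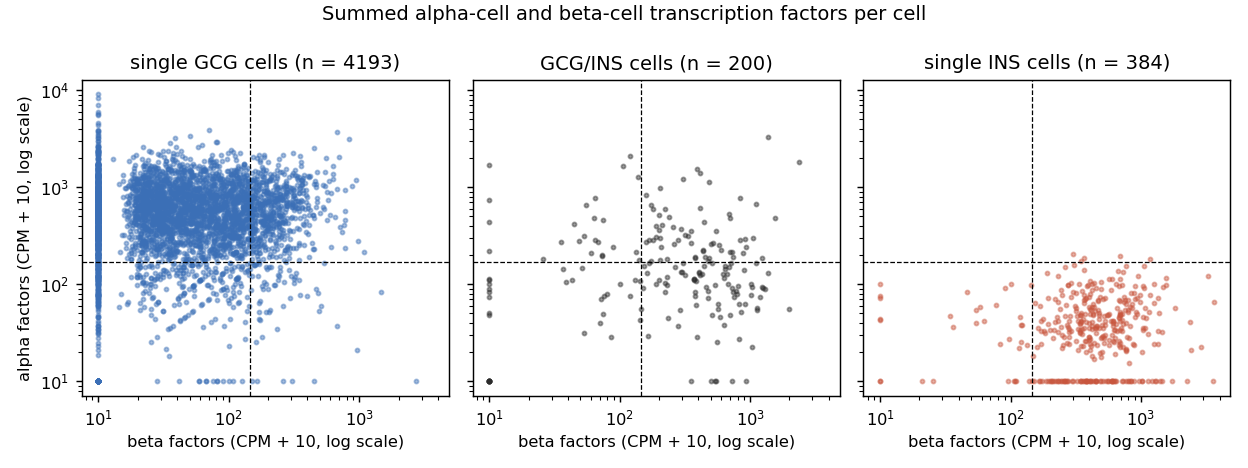
Summed α-cell against summed β-cell transcription factors per cell (CPM + 10, both axes on a log scale) in single GCG, GCG/INS and single INS cells, with dashed lines at 25% of the mean of the matching class. GCG/INS cells spread over all 4 quadrants, with 61 of 200 in the upper right, where 1.30% of single INS and 13.6% of single GCG cells lie. Of cells led by GCG at 2 to 4 times, which are not drawn, 28.4% held both panels.

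The cells with and without both panels differed in depth and content. The 61 cells with both panels had a median of 41251 UMIs, 62759 CPM of GCG and 56586 CPM of INS. The 83 cells with the β-cell panel alone had 59093 UMIs, 41251 CPM of GCG and 62039 CPM of INS, with 429 CPM of SLC2A2 and 87.5 CPM of TSPAN12. The 32 cells with neither had 20952 UMIs and 2473 genes, 84 CPM of SLC2A2 and 845 CPM of IAPP, and 12 of them came from young male 3, the animal with the lowest median depth (39037 UMIs over its retained cells). Over the 200 cells, the log ratio of GCG to INS and the log ratio of the α-cell to the β-cell panel had a Spearman correlation of 0.58. Cells of one library share capture and depth, and this value is a description.

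Across all cells whose leading hormones were GCG and INS, the panels switched within the two-hormone range. Where GCG made 20 to 33% of both hormones together, just outside the range, α-cell factors were at 8.89 ± 3.43% of their single GCG mean (SD, n = 16 monkeys) and β-cell factors at 101 ± 24.9% of their single INS mean. At 33 to 50% they were at 26.6 ± 20.3% and 92.3 ± 34.3% (n = 9), at 50 to 67% at 63.9 ± 19.8% and 51.0 ± 21.1% (n = 6), and at 67 to 80% at 108 ± 42.6% and 21.8 ± 10.6% (n = 8). The β-cell mean of INS-higher two-hormone cells lay within 1 SD of that of the INS-led bin beside it, and in GCG-higher cells both panels were at intermediate levels.

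**Figure D3:**
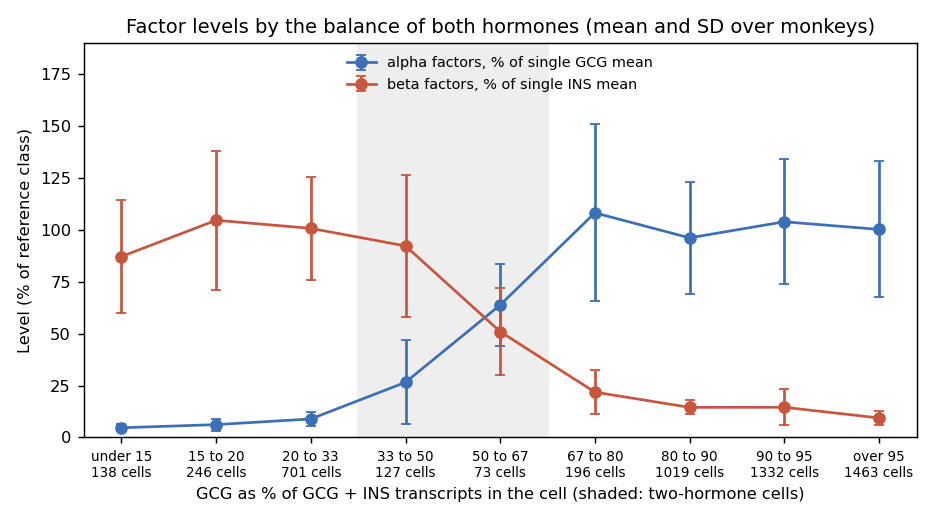
Summed α-cell and β-cell factors as % of their mean in the matching single-hormone class, by the share of GCG in GCG + INS, as mean and SD over monkeys with at least 5 cells in the bin. The shaded bins are the 200 GCG/INS cells, where the α-cell line rises from 26.6% to 63.9% and the β-cell line drops from 92.3% to 51.0%.

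The depth of GCG/INS cells was compared with single-hormone cells of the same library, since a pair of cells under one barcode would hold the transcripts of both. Each cell was set against the average of the single GCG and single INS medians of its library. Over 11 monkeys the mean log2 ratio of UMIs was -0.10 ± 0.94 (SD, 6 of 11 above 0, exact sign-flip p = 0.73). Young male 3, which had no single INS cell, was left out, and in 4 of the 11 monkeys the INS reference rested on 1 to 3 cells. Animals fell on both sides. GCG/INS cells of old male 3 had a median of 155704 UMIs against 75308 in its single GCG cells, and those of young female 3 had 101257 against 75189. Those of young male 4 had 21731 against 81236 and those of young male 1 had 21122 against 64926. Without young male 4, the mean ratio was 0.08.

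UMIs per spike-in UMI, a measure of the RNA in a cell where spike-in input is equal, gave a mean log2 ratio of -0.41 ± 0.72, with 4 of 11 monkeys above 0 (exact sign-flip p = 0.091). Detected genes gave 0.10 ± 0.36, with 6 of 11 above 0 (exact sign-flip p = 0.39). At an equal 10000 UMIs the number of genes was a median of 2560 in GCG/INS cells, 2420 in single GCG and 2453 in single INS cells, with a mean log2 ratio of 0.07 ± 0.15 over 11 monkeys (7 above 0, exact sign-flip p = 0.14). None of these passed 0.05, and the spread between monkeys was wider than any of the means.

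GCG/INS cells were more frequent at both ends of library depth. With the cells of each library ranked by UMIs and cut into 3 equal groups, or terciles, in the shallowest they made 4.99% of cells (98 cells), in the middle one 1.64% (32 cells) and in the deepest one 3.51% (70 cells). For all pairs, the deepest tercile held 3.78 ± 4.12% and the shallowest 6.17 ± 5.29% over 16 monkeys, a difference of -2.39 points (lower in 10, higher in 5, exact sign-flip p = 0.089). Chosen after these values were seen, the middle tercile was lower than the shallowest by 3.44 points for GCG/INS cells (lower in 12 of 16 monkeys, exact sign-flip p = 0.0030), and the deepest was above the middle by 1.86 points (higher in 9 of 16, lower in 5, exact sign-flip p = 0.0098). Both panels were present in 30.6% of the shallow, 28.1% of the middle and 31.4% of the deep GCG/INS cells. Single UMIs of IRX2 and MAFA together were counted in 46.9%, 59.4% and 84.3%, a measure that moves with depth.

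Mitochondrial transcripts, a sign of cell and RNA quality, were higher in GCG/INS cells than in single GCG cells, while their difference from INS cells did not pass. The 13 protein-coding genes of the mitochondrial genome made a median of 5.59% of their UMIs, against 3.23% in single GCG cells and 5.50% in single INS cells. Against the average of both classes in their library the share was 1.54 times as high (mean log2 ratio 0.63 ± 0.56, above 0 in 11 of 11 monkeys, exact sign-flip p = 0.00098, the smallest that 11 monkeys allow). Since single INS cells already held more than single GCG cells, an INS-like cell would also exceed that average. Against single INS cells alone the ratio was 1.21 (8 of 11 above 0, exact sign-flip p = 0.11). Against cells led by INS at least 2 times it was 1.24 (7 of 12 above 0, exact sign-flip p = 0.068). In the shallowest tercile, GCG/INS cells had a median of 9.13% where single GCG cells had 3.16%. In the deepest tercile the medians were 4.35% and 3.30%. Young male 4 stood apart, with a median of 20.5% in its GCG/INS cells and 2.73% in its single GCG cells. This measure was added after the data were seen.

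**Figure D4:**
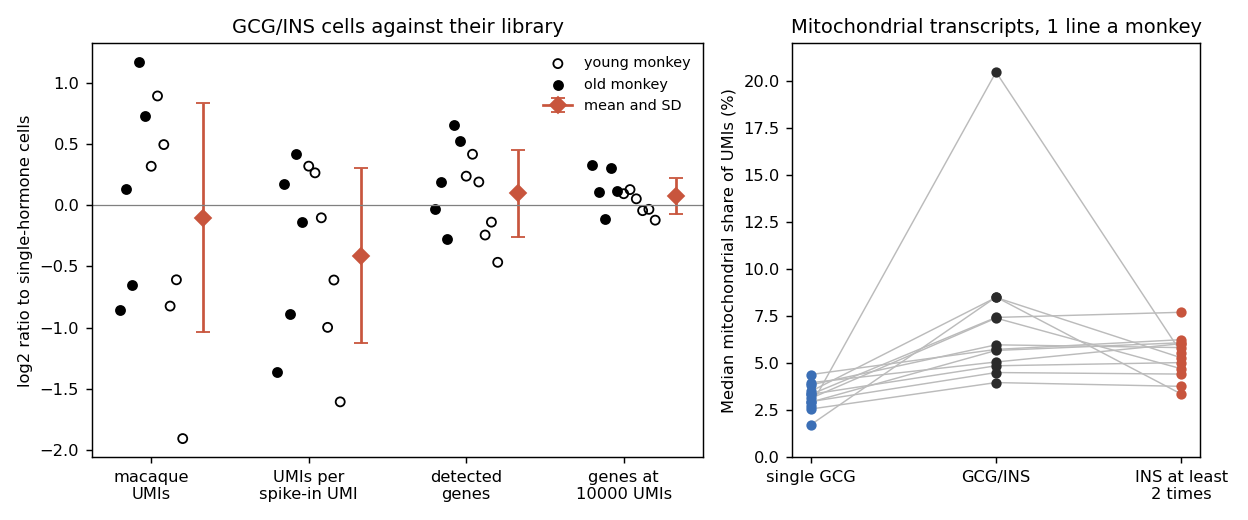
Left, mean log2 ratio of GCG/INS cells to single-hormone cells of their library for UMIs, UMIs per spike-in UMI, detected genes and genes at 10000 UMIs, with 1 point per monkey (11 monkeys) and mean ± SD. Right, median mitochondrial share of UMIs (%) in single GCG cells, GCG/INS cells and cells led by INS at least 2 times, for 12 monkeys, where GCG/INS cells lie above single GCG cells in each animal and young male 4 reaches 20.5%.

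Some GCG/INS cells carried transcripts of other cell types. Of 200 GCG/INS cells, 20 (10%) exceeded the 99th percentile of single-hormone cells in an acinar, stellate, endothelial or immune list, against 3.6% of single GCG and 1.30% of single INS cells. The stellate list was above this limit in 11 cells, the endothelial list in 8, the immune list in 6 and the acinar list in 2 (against 42 of 4193 single GCG cells), and the highest single values were 22861, 13594, 15496 and 1812 CPM. Of 5 tested stellate genes, 1 was higher than in single GCG cells (3.77% of all tested genes) and 1 higher than in single INS cells (1.76%). None of 1 acinar, 4 endothelial and 4 immune genes passed in either contrast. The collagen gene COL3A1 was higher than in single GCG cells (log2 fold change 2.5, edgeR adjusted p = 0.041) but not single INS cells (adjusted p = 0.63). SPARC, a matrix protein of stellate and endothelial cells, was higher than in single INS cells (4.11, adjusted p = 0.0028) but missed the threshold against single GCG cells (adjusted p = 0.081). Both were highest in old female 4, at 341 and 1442 CPM, and COL3A1 lost its call in 7 of 12 fits without 1 monkey. Without the marked cells, 785 genes in place of 1153 passed against single GCG cells and 127 in place of 237 against single INS cells. The ductal list was above its limit in 8 GCG/INS cells (4%), in 0.143% of single GCG and in 10.7% of single INS cells. None of these shares was compared by a test. SPP1 made most of the ductal sum, at a mean of 655 of 758 CPM in GCG/INS and 1292 of 1359 CPM in single INS cells. KRT19 averaged 8.69 CPM in GCG/INS, 1.03 CPM in single INS and 14.2 CPM in single GCG cells, and CFTR 0 in GCG/INS and single INS cells. Whether the ductal shares reflect ductal content was not tested. Defining markers of the 4 lists were at a median of 0 CPM or, for stellate cells, a summed median of 12.6 CPM. Ghrelin (GHRL), the hormone of ε-cells, exceeded 1000 CPM in 11 GCG/INS cells (5.50%, against 3.70% of single GCG cells), 7 of them in young male 3, and 1 cell reached 72847 CPM.

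Very few genes set GCG/INS cells outside the range between both classes. Of 11209 tested genes, 2 (0.0178%) were above both and 5 (0.0446%) below both by edgeR at adjusted p of 0.05 in both contrasts, and 124 (1.11%) lay between. GCG, by which the cells were chosen, is among those between. The pair above comprised ND3, a mitochondrially encoded subunit of respiratory complex I, and PLAC9. ND3 averaged 3632 ± 3742 CPM against 1524 in single GCG and 2179 in single INS cells (log2 fold change 1.02 and 0.67, adjusted p = 5.8e-06 and 0.050). PLAC9 averaged 95.6 ± 173 CPM against 12.1 and 1.94. Among the genes below both, the mitochondrial leucyl-tRNA synthetase gene LARS2 averaged 3.91 ± 8.66 CPM against 10.2 and 30.1, and ENSMFAG00000043709 0.83 ± 1.99 CPM against 4.06 and 10.1. MIPOL1, OGFRL1 and ZNF839 completed them. OGFRL1 and ZNF839, below 10 CPM in all classes, fall outside the rule for named genes and were named after their values were seen. The count of 7 ran from 1 to 9 when single monkeys were left out, being lowest without young male 4. ND3 lost its call against single INS cells in 8 of 12 such fits, with adjusted p up to 0.21 by edgeR. PLAC9 lost its call against single GCG cells in 6 and against single INS cells in 4 of them, and without the cells marked by another type its log2 fold changes were 0.58 and 1.79 (adjusted p = 0.75 and 0.52 by edgeR). Neither ND3 nor PLAC9 was called above both classes without old female 4, old male 4, young male 1 or young male 4. Over all 22 fits, ND3, PLAC9 and LARS2 were called outside both classes in 9 each, MIPOL1 in 10, OGFRL1 in 12, ZNF839 in 4 and ENSMFAG00000043709 in 18.

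Of 12 tested pan-endocrine genes, 7 were lower than in single GCG cells, where 6.51% of all tested genes were, and 2 higher than in single INS cells, where 1.76% were. NEUROD1, NKX2-2, PAX6, CHGB and CPE passed in neither contrast. Chromogranin A (CHGA), a granule protein, averaged 511 ± 341 CPM against 1144 and 162, and PCSK2, the convertase that yields glucagon, 653 ± 306 CPM against 1870 and 346. Of 6 tested immediate-early genes, 3 were lower than in single GCG cells and 5 higher than in single INS cells. FOS averaged 862 ± 663 CPM against 1318 and 131, and EGR1 569 ± 259 CPM against 922 and 117. Of 11 tested chaperone and unfolded protein response genes only PDIA6 passed, lower than in single INS cells, where 0.357% of all tested genes were (log2 fold change -1.62, edgeR adjusted p = 0.015). Of 6 cell cycle genes only CCND1 passed, higher than in single GCG cells, where 3.77% of all tested genes were (1.97, adjusted p = 0.020). Of 5 progenitor genes only PROCR passed, lower than in single GCG cells. Of the δ-cell and PP-cell factors, EHF was lower (log2 fold change -1.45, edgeR adjusted p = 0.034) and MEIS2 higher (0.58, adjusted p = 0.041) than in single GCG cells, and each lost its call in 9 of 12 fits that left out 1 monkey.

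The age comparison asked whether old animals held more such cells. Two-hormone cells made 3.12 ± 3.0% of cells in 8 old and 5.03 ± 3.48% in 8 young monkeys, a difference of -1.91 percentage points (exact permutation test, two-sided p = 0.26). GCG/INS cells made 2.33 ± 2.42% and 4.53 ± 3.23%, a difference of -2.20 points (exact permutation p = 0.15). With the ratio limit widened to 3 the differences turned to 1.18 points for all pairs and 0.62 for GCG/INS cells, and with a floor of 50000 CPM the GCG/INS difference was -2.31 points (exact permutation p = 0.044). The old values ran from 0.27 to 7.65% with a median of 1.73%, and the young values from 0.54 to 10.8% with a median of 4.75%, so the groups overlapped over nearly their whole range. Without old female 1 the difference was -2.96 points (exact permutation p = 0.029). Two-hormone cells of all pairs made 1.80% of cells in 4 old and 5.04% in 4 young males, a difference of -3.24 points (exact permutation p = 0.029, the smallest that 4 against 4 allow), and 4.44% and 5.02% in females (exact permutation p = 0.94). The age differences of the sexes were not told apart (permutation p = 0.44). For GCG/INS cells between males the difference was -3.31 points (exact permutation p = 0.057, 4 animals against 4) and between females -1.09 points (p = 0.69 by the same exact test). Here too the sexes were not told apart (difference of -2.22 points, permutation p = 0.46).

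Within GCG/INS cells of 7 young and 5 old monkeys, no gene of 7789 (0% called) passed an adjusted p of 0.05 between ages by edgeR with sex as a covariate, and 360 had an unadjusted p under 0.05. DESeq2 called 7 genes on the same sums. The share of GCG/INS cells did not follow the share of single INS cells over 16 monkeys (Pearson r = -0.03, permutation p = 0.91, Spearman rho = -0.16, permutation p = 0.56, both adjusted over 2 relations to 0.91 and 0.67). Without the 2 most distant animals r was 0.14. For the share of all cells led by INS, r was 0.11 (permutation p = 0.68).

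GCG/PPY cells were few and concentrated in one animal. PPY is the product of PP-cells, and IRX2 was counted in 87.9% of cells led by PPY at least 2 times. Of 21 cells, 13 came from old female 2, 4 from old male 4, 2 from young male 4 and 1 each from old male 2 and young male 1, so no test over monkeys was made. Their medians were 59964 CPM of GCG and 71295 CPM of PPY, with PPY higher in 15, and 4201 CPM of INS. IRX2 was counted in 20 of 21 (95.2%) and MAFA in 6 (28.6%). UGT2B20, a marker of macaque PP-cells, was counted in 7 of 21 (33.3%, exact 95% interval 14.6 to 57.0%), in 67.2% of 58 cells led by PPY at least 2 times, and in 1.81% of single GCG cells. PPP1R17 was counted in 52.4% of GCG/PPY cells, against 63.8% of PPY-led and 14.5% of single GCG cells. It averaged 220 CPM against 164 and 10.8 CPM, but its medians were 15.4 CPM against 53.5 and 0 CPM. UMIs of GCG/PPY cells were a median -0.20 log2 units from the average of GCG-led and PPY-led cells of the same library, and 8 of 21 were above it. None was marked by another cell type.

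GCG/SST cells carried δ-cell genes beside α-cell genes. SST is made by δ-cells, which depend on the factor HHEX. The 16 cells came from 8 monkeys, with medians of 53370 CPM of GCG and 65316 CPM of SST, and SST was higher in 10. HHEX was counted in 9 (56.3%, exact 95% interval 29.9 to 80.2%), against 81.2% of 101 cells led by SST at least 2 times and 3.39% of single GCG cells. RBP4, a retinol carrier abundant in δ-cells, was counted in all 16 at a mean of 6820 CPM, against 7703 CPM in SST-led and 18.7 CPM in single GCG cells. LEPR averaged 343 CPM against 396 and 1.37, and GHSR, the ghrelin receptor, 61.9 CPM against 59.8 and 0.086. IRX2 was counted in 15 of 16 at a mean of 260 CPM, against 28.5 CPM in SST-led cells and 473 CPM in single GCG cells, and MAFA in 0 of 16, which allows a share of cells with a UMI of up to 18.8%. Their UMIs were a median -0.45 log2 units from the average of GCG-led and SST-led cells of the same library, with 5 of 16 above it. The lists of other cell types marked 3 of the 16 cells, with the acinar list above its limit in 2 and the immune list in 1. The highest acinar value, 9699 CPM, was CPB1 alone. This gene averaged 550 CPM in SST-led cells, with a UMI in 60.4% of them, and 24.3 CPM in single GCG cells. Whether it reflects acinar content here was not tested. Of the other acinar genes, CLPS reached 1516 CPM in a GCG/SST cell. By the same lists 20 of 101 SST-led cells were marked.

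Cells with 3 abundant hormones were rare. The third hormone passed 20000 CPM in 7 of the 238 two-hormone cells and 10000 CPM in 23. The single INS/PPY cell, from old female 1, held 24563 CPM of PPY, 20280 of INS and 13561 of GCG at 113706 UMIs.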

How the data were processed

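The authors prepared libraries with a modified STRT-seq protocol with 8-base cell barcodes and UMIs (the tables also hold ERCC and RGC spike-in rows), aligned reads to Macaca_fascicularis_5.0 with TopHat (2.0.12 in the submitters' processing notes) and counted uniquely mapped reads per gene with HTSeq. The deposited values are raw UMI counts per gene and cell, 64 tables, 1 per library. Cells with over 800 macaque genes and over 10000 UMIs, spike-ins included, were kept, 5908 of 6141 barcodes. CPM were computed over the 21041 rows that are not among the 95 spike-in rows. No doublet caller was run. Members, gene lists and tests were chosen with earlier results of these data known.

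Tests of shares used all 16 monkeys and other tests those with at least 5 GCG/INS cells, and library medians with fewer than 3 cells were replaced by those of the monkey. Shares and depth were compared by exact permutation and sign-flip tests over monkeys, enumerated in full with numpy 2.4.6, and binomial intervals came from scipy 1.17.1. Counts were summed per monkey and class and fitted with edgeR 4.0.16 quasi-likelihood (R 4.3.3, TMM, filterByExpr, monkey as a block), with Benjamini-Hochberg adjustment. In 5 of 12 monkeys single INS cells numbered under 5 and entered no sum. Hormones were not taken out of the counts of called genes. These counts hold GCG, INS and SST against single GCG cells, and GCG and PPY against single INS cells. DESeq2 1.42.0 was an alternative, and others are given in the closing section. Scripts were tested on simulated data. Genes named as above or below both classes were those of at least 10 CPM in one class. Replicate numbers only name the monkeys of a group. p-values measure the spread between monkeys. Intervals are exact binomial and, like the limit for a count of 0 (3 counts), cover counting error only. Results for 1 gene of the lists are not reported here.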

Additional observations from a re-analysis of the deposited data

Results flagged for a closer look

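GCG/PPY cells made 3.57% of retained cells in old female 2 and none in the other 3 old females, which set that animal apart from its group. GCG/SST cells made 0.265% in old male 4, which is 1 cell, and none in the other 3 old males. These were 2 of 15 groups of monkeys checked, and chance sets a sample apart in about 1 of 20 groups. That rate does not hold for these groups, since with 3 animals at 0 a single cell in the other sets it apart. Among the 233 barcodes left out for few genes or UMIs, 208 held at least 1000 UMIs, and 32 of these (15.4%, exact 95% interval 10.8 to 21.0%) met the two-hormone rule, 28 of them with GCG and INS. Their median was 5690.5 UMIs and they came from 7 monkeys. The share among retained cells was 4.03%. No test of this difference was made.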

How the results depend on the processing

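Widening the rule to a ratio under 3 turned the age difference to 1.18 points for all pairs and 0.62 for GCG/INS cells (exact permutation p = 0.76 and 0.86), and at 50000 CPM the GCG/INS difference was -2.31 (exact permutation p = 0.044). With old and young monkeys paired by number as a replicate block, the differences of -1.91 and -2.20 points gave exact p of 0.18 and 0.063, and 0 genes passed between ages. Without single monkeys the differences ran from -2.60 to -0.93 and from -2.96 to -1.30. Log2 ratios of UMIs ran from -0.28 to 0.0192 for all pairs and from -0.23 to 0.0797 for GCG/INS cells, turning above 0 without young male 4, those of genes from 0.04 to 0.15 and those of UMIs per spike-in UMI from -0.49 to -0.29. Genes turned to -0.0486 against classes at 2 times, -0.14 for ratios under 1.5 and -0.0444 against the higher class. UMIs per spike-in UMI passed 0.05 against classes at 8 times (-0.93), with at least 3 cells (-0.47) and against the higher class (-0.53), by exact sign-flip p of 0.031, 0.046 and 0.034. The share among the deepest less that among the shallowest cells ran from -3.01 to -1.74, passing without old male 3 or young female 1. IRX2 with MAFA ran from 27.1 to 29.9 points against single GCG and 20.1 to 24.3 against single INS cells, where 23.6 points unthinned and 16.1 at 8 times did not pass. The mitochondrial ratio ran from 0.52 to 0.69, and the contrasts of middle with shallowest and deepest with middle depth from -3.77 to -2.95 and 1.46 to 2.04.

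Genes called against single GCG cells numbered 1863 with DESeq2, 620 thinned, 655 at 8 times, 706 with 10 cells per monkey and 930 to 1240 without single monkeys. Against single INS cells they numbered 626 with DESeq2, 151 with 10 cells, 127 without marked cells and 109 to 271 without single monkeys, with 109 without young male 4 and 132 without old female 4. Genes outside both classes numbered 41 with DESeq2, 4 without a filter, 14 thinned, 0 at 8 times, 14 without the deepest cells, 1 with 10 cells, 18 at 2 times, 3 without marked cells and 1 to 9 without single monkeys. Between ages they numbered 7 with DESeq2, 53 without a filter and 0 to 2 without single monkeys. At 8 times, MIPOL1 and ZNF839 turned to 6.04 and 5.17 against single INS cells. The cause of these changes was not tested. Hand-picked cells without a doublet caller, and hormones present in each class, limit what the two-hormone label means.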
